A study of Mus musculus with 2 samples.

Results

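Neurotrophins are secreted growth factors that keep neurons alive and strengthen their synapses. The 6 genes described here are 2 of the neurotrophins and 4 of the receptors that bind them: Bdnf, Ntf3, Ntrk2, Ntrk3, Ngfr and Sort1. They were taken by symbol from a table of 55536 mouse genes, and all 6 symbols matched 1 gene each. The rule uses symbols and no measured value.

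Total RNA was sequenced from hippocampal tissue, labelled as layer of hippocampus, of B6CASTF1/J mice, an F1 hybrid strain. The animals were males aged 14 days. There was 1 group, with no treatment or transgene named, and it held 2 biological replicates. Each was made from 300 ng of RNA, and the labels list 3 males for each, with different animal numbers. Whether the RNA of the 3 was pooled is not stated, so every SD below covers 2 libraries and no single animals. No comparison between conditions exists, and the comparisons below are between genes, between transcripts and between the 2 replicates.

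Neurotrophins are made as precursors (proneurotrophins), sorted into secretory vesicles, cleaved and released. Mature BDNF binds the tyrosine kinase receptor TrkB, the product of Ntrk2, and NT-3, the product of Ntf3, binds mainly TrkC, the product of Ntrk3. Precursors bind p75NTR, the product of Ngfr, together with sortilin, the product of Sort1, and that pair is known for signalling cell death and synaptic weakening rather than growth. In the hippocampus BDNF is best known for its part in long-term potentiation, and its mRNA is made by neurons and rises with activity.

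TrkB and TrkC exist in forms that end before the kinase. Both genes splice their transcripts after the membrane-spanning part either to the kinase exons or to a short end of their own. The bases at that fork are given first because the receptor results turn on which end is used. Each line runs from 24 coding bases that both forms share, in lower case, into the bases that follow the last shared exon junction, in capitals. For the truncated forms the capitals run to the stop codon, which is included, and for the full-length forms they are the first 60 bases of the reading frame that goes on. The sequences are from the GENCODE M21 transcripts on mm10, the reference genome, and not from the reads.
Ntrk2-202 (TrkB T1 end): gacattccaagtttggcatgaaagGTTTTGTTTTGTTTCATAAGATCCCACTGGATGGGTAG
Ntrk2-201 (full-length): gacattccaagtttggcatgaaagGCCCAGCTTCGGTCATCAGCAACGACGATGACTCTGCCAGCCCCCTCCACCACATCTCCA
Ntrk2-205 (another truncated end): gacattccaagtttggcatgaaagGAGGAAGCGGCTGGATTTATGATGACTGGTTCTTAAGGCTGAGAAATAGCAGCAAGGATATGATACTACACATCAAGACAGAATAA
Ntrk3-202 (truncated): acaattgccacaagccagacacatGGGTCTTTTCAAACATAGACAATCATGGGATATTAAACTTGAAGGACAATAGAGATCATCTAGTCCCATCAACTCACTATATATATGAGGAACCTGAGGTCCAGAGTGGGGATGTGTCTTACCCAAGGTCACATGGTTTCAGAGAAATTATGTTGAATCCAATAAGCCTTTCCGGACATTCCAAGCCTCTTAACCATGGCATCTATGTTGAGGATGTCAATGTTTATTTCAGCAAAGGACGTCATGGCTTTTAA
Ntrk3-201 (full-length): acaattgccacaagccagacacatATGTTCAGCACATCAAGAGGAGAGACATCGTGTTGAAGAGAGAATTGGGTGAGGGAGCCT

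In Ntrk2 the shared part of the coding sequence is 1393 bases long. The T1 end adds 35 coding bases from 1 exon at chr13:58932023-58932057 on the plus strand, and the full-length frame adds 1070 bases in 6 exons, the first of them at chr13:58985802-58985990. The end of Ntrk2-205 adds 83 coding bases at chr13:58878339-58878421. In Ntrk3 the shared part is 1585 bases. The truncated end adds 251 coding bases from 2 exons between chr7:78302632 and chr7:78304426 on the minus strand, and the full-length frame adds 890 bases in 5 exons, the first at chr7:78260284-78260414.

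Reads assigned to genes summed to 29144892 expected counts in replicate 1 and 31755578 in replicate 2. An expected count is the estimated number of reads of a gene, and TPM divides it by the gene's effective length and scales the result to the same sum in each library, so that levels of different genes can be set side by side. Hippocampal neuron genes were high in both libraries, with Camk2a at 1260 and 1307 TPM and Prox1, a marker of dentate granule cells, at 43.9 and 63.0 TPM. Among the marker lists examined, that of myelinating oligodendrocytes differed between the libraries in every gene. All 6 markers of myelinating oligodendrocytes were lower in replicate 2, with a summed level of 1490 TPM in replicate 1 and 771 TPM in replicate 2. Tcf7l2 and Prkcd, from the list of thalamic genes, and the choroid plexus genes Ttr and Otx2 were lower there too. In these tissue libraries fewer cells of a type and less RNA per cell cannot be told apart.

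The 6 genes covered more than 2 orders of size, from Ntrk2 at the top to Ngfr at the bottom. The receptors of mature neurotrophins and sortilin were abundant, the ligands were much lower, and p75NTR was lowest, under 1 TPM in both libraries. Ntrk2 was at 134 TPM in replicate 1 and 133 TPM in replicate 2, with a mean of 133 ± 1.16 TPM (SD, n = 2). Its mean lay above that of 95.4% of the 12911 nuclear protein-coding genes that had at least 1 TPM in both libraries. Sort1 followed at 112 and 116 TPM (mean 114 ± 2.81), above 94.3% of those genes. Ntrk3 was at 83.0 and 89.9 TPM (mean 86.5 ± 4.84), above 92.0% of them.

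The ligands lay in the middle and the lower part of the same range. Bdnf was at 14.35 and 17.25 TPM (mean 15.8 ± 2.05), above 51.0% of the detected protein-coding genes. Ntf3 was at 3.64 and 6.26 TPM (mean 4.95 ± 1.85), above 20.8% of them. Ngfr was at 0.86 and 0.96 TPM (mean 0.91 ± 0.0707), under the level of 1 TPM that defined those genes. These values rest on 1133 and 1447 expected counts for Bdnf, 92 and 168 for Ntf3, and 58 and 69 for Ngfr, against 12187 to 17642 for the other three. The deposited tables give a posterior SD of 0 for the count of each of the 6 genes, so the reads were not divided between these genes and others.

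**Figure D1:**
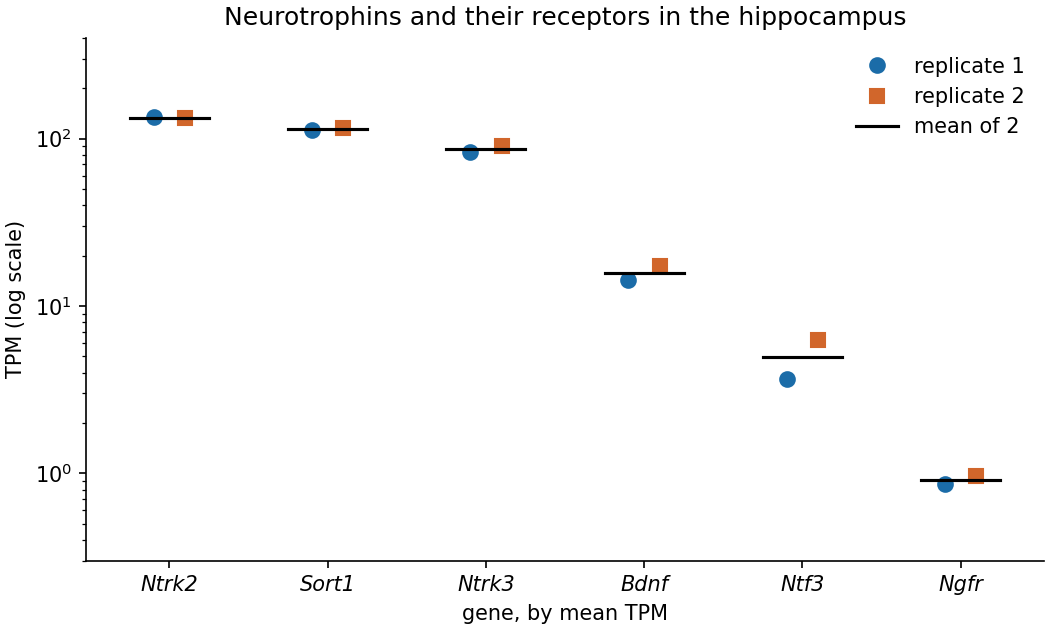
TPM of the 6 genes in each library (log axis), circles for replicate 1, squares for replicate 2 and a bar for the mean of 2. Ntrk2, Sort1 and Ntrk3 lie between 83.0 and 134 TPM, Bdnf at 14.35 and 17.25, Ntf3 at 3.64 and 6.26, and Ngfr under 1 TPM in both.

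The order of the genes was Ntrk2, Sort1, Ntrk3, Bdnf, Ntf3 and Ngfr, and it was the same in both libraries. Pairs of genes were held apart by a rule on the log2 ratio of TPM: its sign had to match between replicates, and its mean had to exceed both 0.5 and 2 SD in size. No p-value stands behind this rule, because flipping signs over n = 2 gives an exact two-sided p of 0.5 at best. Of 10 pairs, 6 fixed and the rest neighbours in the order, 8 were called. Ntrk2 and Sort1, with a log2 ratio of 0.22 ± 0.05, and Sort1 and Ntrk3, with 0.40 ± 0.05, did not reach a size of 0.5, although the sign was shared by both libraries.

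Among the receptors, Ntrk2 was 1.54-fold higher than Ntrk3 (log2 ratio 0.63 ± 0.09). That call depended on the division by length, since the ratio of the counts alone was 0.38 on the log2 scale. Ntrk2 was 147-fold higher than Ngfr (log2 ratio 7.20 ± 0.12) and Sort1 was 126-fold higher than Ngfr (6.97 ± 0.08). The mRNA of sortilin, the partner of p75NTR for precursors, was thus far above that of p75NTR itself. Between the ligands, Bdnf was 3.30-fold higher than Ntf3 (log2 ratio 1.72 ± 0.37). Each ligand was lower than its main receptor: Ntrk2 exceeded Bdnf by 8.47-fold (3.08 ± 0.20) and Ntrk3 exceeded Ntf3 by 18.1-fold (4.18 ± 0.47). These folds count all transcripts of a gene, truncated and noncoding ones included. Full-length transcripts alone had a lower mean, of 57.7 TPM for Ntrk2 and 38.5 TPM for Ntrk3, still above the ligands.

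Bdnf, at chr2:109674700-109727007 on the plus strand, is read from several promoters, each with its own first exon spliced to 1 shared coding exon. The 11 annotated transcripts fall into 8 first exons that do not overlap, numbered I to VIII here in genome order. All share 1 stop codon. The coding sequence is 747 bases long, or 249 codons, in every transcript but Bdnf-201, which starts in exon I and has 771 bases, and Bdnf-202, which starts in exon VIII and has 867 bases.

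First exon VI, at chr2:109693563-109693909, carried the most Bdnf RNA, at 51.0% of Bdnf TPM in replicate 1 and 48.0% in replicate 2 (mean 49.5 ± 2.15%, n = 2). First exon IV, at chr2:109692436-109692774, carried 21.8% and 21.9%. The 3 transcripts of first exon II, between chr2:109675897 and chr2:109676395, carried 14.9% and 15.7% together, and first exon I, at chr2:109674700-109675339, carried 9.07% and 8.87%. These 4 exons held 95.7 ± 1.68% of Bdnf TPM, and their order was the same in both libraries.

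The remaining first exons were near the limit of detection. Exon VII was at 1.05% and 3.94%, exon III at 1.12% and 0.812%, exon VIII at 0.976% and 0.754%, and exon V was at 0 in both libraries. The counts behind the low shares are small: 11.2 and 54.4 expected counts for exon VII, and between 10.2 and 12.2 for exons III and VIII. Most of each transcript is the shared coding exon, so reads were divided between transcripts by estimate. The posterior SD of the count was 45.9 for the 573 expected counts of Bdnf-205 in replicate 1, and 12.5 for the 11.2 expected counts of Bdnf-203.

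**Figure D2:**
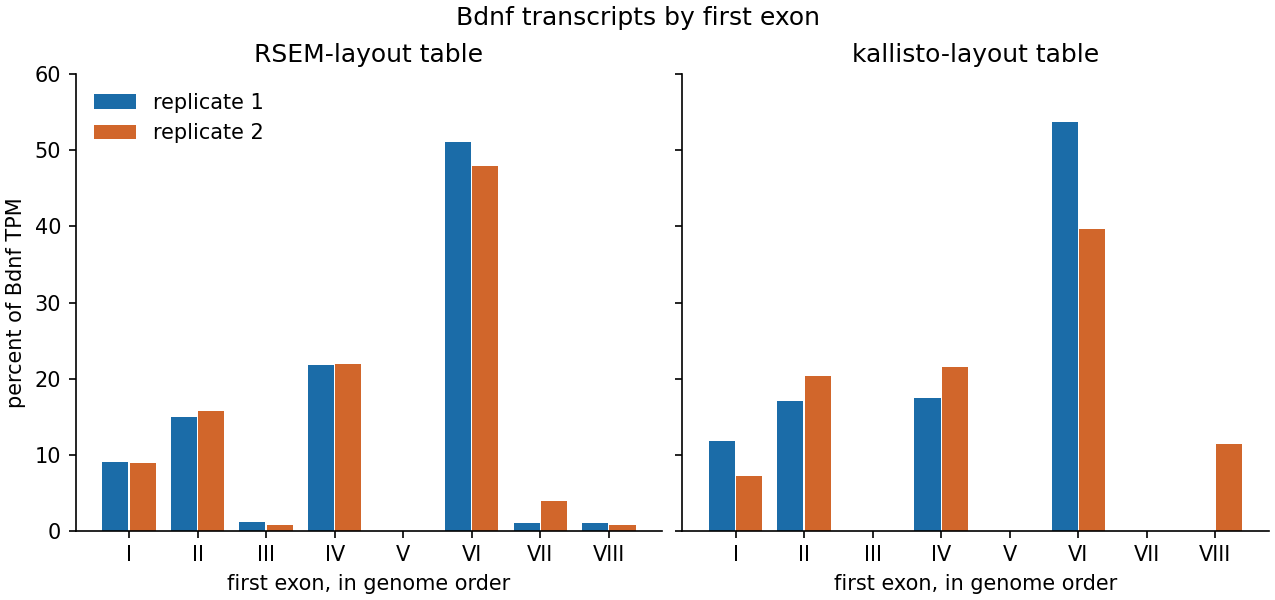
Percent of Bdnf TPM by first exon in genome order, bars for replicate 1 (blue) and replicate 2 (orange), from the RSEM-layout table on the left and the kallisto-layout table on the right. Exon VI is highest in both libraries and both tables; in the RSEM-layout table it is at 51.0% and 48.0%, and in the kallisto-layout table at 53.8% and 39.6%.

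A second deposited set of transcript tables, in the column layout of the program kallisto, gave the same leading exon with a wider spread. Exon VI was at 53.8% in replicate 1 and 39.6% in replicate 2 there, exon IV at 17.4% and 21.5%, exon II at 17.1% and 20.3%, and exon I at 11.7% and 7.16%. Exon IV stayed above exon II in each library, by a margin smaller than the spread between the replicates. Exon VIII was at 0 in replicate 1 and at 11.4% in replicate 2, above exon I. The order VI, IV, II at the top was shared by both libraries and both tables.

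The exon IV promoter is the best studied activity-dependent promoter of Bdnf, so its sequence is shown. The 250 bases before the start of exon IV are given for the plus strand (chr2:109692186-109692435, RefSeq, GRCm38.p6), with the motif match in capitals.
Bdnf exon IV promoter: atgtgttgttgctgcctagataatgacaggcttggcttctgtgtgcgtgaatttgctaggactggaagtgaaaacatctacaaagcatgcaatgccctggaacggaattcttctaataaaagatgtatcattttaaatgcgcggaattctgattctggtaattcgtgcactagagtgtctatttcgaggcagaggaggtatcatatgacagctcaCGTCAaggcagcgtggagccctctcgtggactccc

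The letters searched on both strands were TGACGTCA, the consensus cAMP response element bound by CREB, and its core TGACG, which lies inside it. Also searched was CACGTG, a consensus E-box bound by USF proteins. Only exact matches were counted, so sites with other letters were missed. One core, read on this strand as CGTCA, began 35 bases before the start of exon IV. The core occurred in 17.8% of all 32851 windows of this length before gene starts. No exact match to the complete cAMP response element (1.55% of all windows) or to this E-box (6.02%) was found in the exon IV window. That does not show that the promoter lacks a site for CREB or USF proteins. None of the 3 motifs was found in the windows of first exons I, III, V, VII and VIII. A further Bdnf window, at chr2:109722671-109722920, lies before a start outside the numbered first exons and also held none. First exons II and VI were not searched. A match is a description of the letters and no evidence of binding.

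The factors known to act at Bdnf promoters were all measurable, with a median of 27.3 TPM over 11 genes. Usf1 (56.8 and 55.4 TPM), Crtc1, a coactivator of CREB (53.5 and 54.4 TPM), and Usf2 (51.9 and 50.6 TPM) had the highest levels. No gene of the list was under 1 TPM.

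Ntf3, at chr6:126101412-126166910 on the minus strand, has 3 annotated protein-coding transcripts, and the tables disagreed on which was used. Ntf3-203 held 87.8% and 91.6% of Ntf3 TPM in the RSEM-layout table, and 26.1% and 0 in the kallisto-layout table. Ntf3-202 held 12.2% and 8.39% in the first and 55.7% and 89.5% in the second. Both transcripts have a coding sequence of 813 bases, or 271 codons. With 92 and 168 counts for the gene, no leading transcript of Ntf3 can be named from these files.

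Ntrk2, at chr13:58806569-59133970 on the plus strand, has 10 annotated transcripts. For the following, full-length transcripts are those whose complete coding sequence reaches the stop codon of the gene's longest one, truncated transcripts are protein-coding ones with a complete coding sequence that ends before it, and the rest are given apart. The 5 truncated transcripts of Ntrk2 summed to 77.5 TPM in replicate 1 and 69.2 TPM in replicate 2 (mean 73.3 ± 5.84). The 2 full-length ones summed to 53.4 and 62.0 TPM (57.7 ± 6.05). By TPM, truncated transcripts were 1.45-fold higher in replicate 1 and 1.12-fold higher in replicate 2. The mean log2 ratio of 0.35 ± 0.27 did not pass the rule, and in the kallisto-layout table it was 0.21 ± 0.29. The sign was the same in both libraries and both tables, but each mean lay within 2 SD of 0. In replicate 2 of the kallisto-layout table the ratio was only 0.01. No direction of this balance is therefore given for Ntrk2. On counts not divided by length, which weigh longer transcripts more, the mean turned to -0.15.

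Within the truncated class, the T1 end shown above was by far the most used. The 2 transcripts with it, Ntrk2-202 and Ntrk2-204, summed to 61.4 and 57.5 TPM, or 45.8% and 43.4% of Ntrk2 TPM. This truncated receptor of 476 amino acids, against 821 for full-length TrkB, is best known from astrocytes. Ntrk2 RNA with the T1 end and full-length Ntrk2 RNA were in a log2 ratio of 0.20 in replicate 1 and -0.11 in replicate 2, so their order differed between the libraries. Ntrk2-205, with its own end, was at 13.2 and 9.73 TPM. The ends of Ntrk2-208 and Ntrk2-209 were at 0.96 to 1.76 TPM.

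Full-length Ntrk2 was higher in replicate 2 and the truncated class was higher in replicate 1, while the gene as a whole was nearly level. The astrocyte markers did not move in 1 direction between the libraries: of 6, Slc1a3 and Aqp4 were higher in replicate 2, Slc1a2 and Aldoc were lower, and 2 were not called, with a summed level of 1771 and 1793 TPM. Whether the cell makeup of the samples bears on the balance of Ntrk2 forms was not tested.

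**Figure D3:**
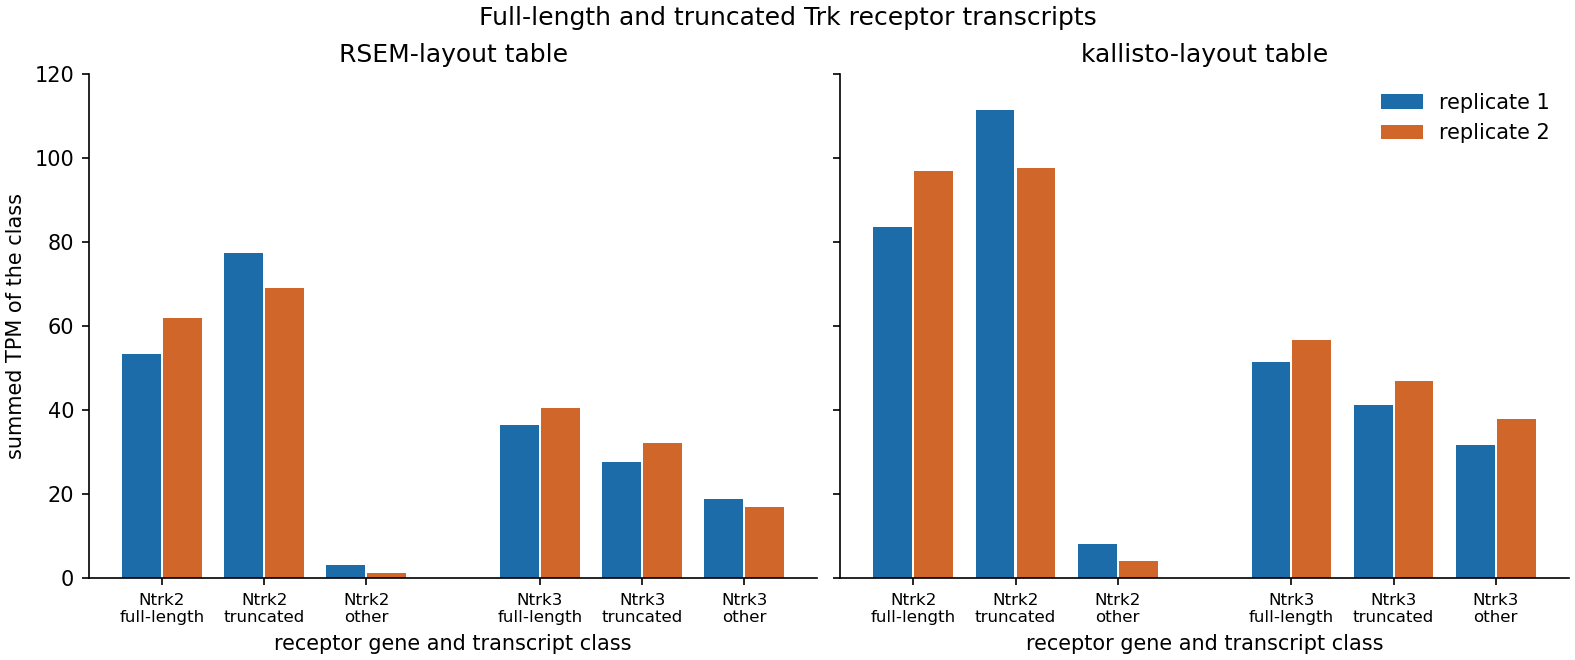
Summed TPM of full-length, truncated and other transcripts of Ntrk2 and Ntrk3, bars for replicate 1 (blue) and replicate 2 (orange), from the RSEM-layout table on the left and the kallisto-layout table on the right. Truncated Ntrk2 is above full-length Ntrk2 in each panel and library, by 1.45-fold and 1.12-fold on the left, and truncated Ntrk3 is below full-length Ntrk3, at 27.7 and 32.1 TPM against 36.4 and 40.7 TPM on the left.

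Ntrk3, at chr7:78175959-78738012 on the minus strand, has 20 annotated transcripts. Full-length transcripts, of which there are 3, summed to 36.4 and 40.7 TPM (38.5 ± 3.00), and the 1 truncated transcript, Ntrk3-202, was at 27.7 and 32.1 TPM (29.9 ± 3.13). The log2 ratio of truncated to full-length was -0.39 and -0.34 (mean -0.37 ± 0.04), of the same sign in both libraries and more than 2 SD from 0, but under the size of 0.5 that the rule asks. In the kallisto-layout table it was -0.30 ± 0.03. Ntrk3-202 codes for a receptor of 612 amino acids and Ntrk3-201 for one of 825.

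Length decides how this balance reads. Ntrk3-201 is 19703 bases long and Ntrk3-202 is 3977, so that the full-length class took 9708 and 10923 expected counts and the truncated transcript 2170 and 2680. The log2 ratio of the counts was -2.09, and it passed the rule. The other 16 transcripts of Ntrk3, mostly short and without a complete coding sequence, held 22.7% and 19.0% of its TPM on only 2.54% and 2.40% of its counts. One of them, Ntrk3-220, was at 8.12 and 11.1 TPM in the RSEM-layout table and at 0 in the kallisto-layout table.

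Full-length TrkC also exists with short inserts in the kinase domain, which are known to alter its signalling. The 2 exons that code for them are shown in capitals between 12 flanking bases on each side. The first is 42 bases long, 14 codons, at chr7:78204103-78204144, and the second is 75 bases long, 25 codons, at chr7:78229487-78229561.
Ntrk3-205 (insert of 14 codons): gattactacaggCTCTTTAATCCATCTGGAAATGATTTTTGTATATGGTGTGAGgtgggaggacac
Ntrk3-206 (insert of 25 codons, followed by that of 14): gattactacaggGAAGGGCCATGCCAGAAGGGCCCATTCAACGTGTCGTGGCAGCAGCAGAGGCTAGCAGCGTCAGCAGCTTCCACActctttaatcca

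Both inserts were the minority of full-length Ntrk3. Ntrk3-201, which lacks both, held 62.4% and 58.2% of full-length Ntrk3 TPM. Ntrk3-205 held 30.8% and 37.0%, and Ntrk3-206, with both inserts, held 6.84% and 4.75%. The size of these shares depends on the division by length, since Ntrk3-205 is 2678 bases long and Ntrk3-201 is 19703. In expected counts Ntrk3-201 took 8989 and 9978, Ntrk3-205 took 584 and 834, and Ntrk3-206 took 134 and 111. The kallisto-layout table gave the same order, with means of 64.7%, 24.4% and 10.9%. The posterior SD of the count in replicate 1 was 56.5 for the 584 counts of Ntrk3-205 and 41.7 for the 134 counts of Ntrk3-206, so the second was poorly resolved.

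Ngfr, at chr11:95568818-95587735 on the minus strand, has 1 annotated transcript, coding for 427 amino acids. Its 58 and 69 counts make it measurable but rare. In the forebrain p75NTR is best known from the cholinergic neurons of the basal forebrain, whose axons reach the hippocampus. The defining genes of cholinergic cell bodies were near 0, with Chat at 0.05 and 0.02 TPM, Slc18a3 at 0.09 and 0.10 TPM and Slc5a7 at 0.34 and 0.26 TPM.

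Most partners of p75NTR were much more abundant than the receptor. The 10 genes of that list had a median of 86.2 TPM, led by Maged1 (207 and 227 TPM), an adaptor in its death signalling, Arhgdia, which codes for an inhibitor of small GTPase cycling that it binds (154 and 171 TPM), and Bex3 (149 and 171 TPM), also known as NADE. Nradd, a relative of p75NTR with a death domain, was level with Ngfr at 0.90 and 0.95 TPM, and Ripk2, a kinase of its signalling that was named after its values were seen, was at 2.18 and 2.36 TPM.

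Sort1, at chr3:108284082-108361511 on the plus strand, has 3 annotated transcripts. Sort1-201 held 80.5% and 77.5% of Sort1 TPM and Sort1-203 held 17.4% and 20.4%, and the kallisto-layout table gave 70.8% and 64.9% against 27.4% and 33.6%. Sort1-203 differs in its coding sequence by 1 extra exon of 99 bases, 33 codons, at chr3:108355472-108355570, and codes for 858 amino acids in place of 825. Inclusion of this exon is known to be held down by the RNA-binding protein TDP-43. It is shown in capitals between 12 flanking bases on each side.
Sort1-203: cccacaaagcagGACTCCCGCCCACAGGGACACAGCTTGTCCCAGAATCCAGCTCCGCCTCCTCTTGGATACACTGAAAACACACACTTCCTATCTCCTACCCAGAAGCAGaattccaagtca

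Sort1-203 was the minor form in both libraries and both tables, and its share lay higher in replicate 2 in each. The reads that tell both forms apart are few: the posterior SD of the count in replicate 1 was 197 for the 2655 counts of Sort1-203. Sortilin was the most abundant of its family. The other Vps10p receptors had a median of 20.6 TPM, with Sorl1 at 56.5 and 63.3 TPM, Sorcs2, which also binds proneurotrophins with p75NTR, at 24.6 and 28.4 TPM, and Sorcs3 at 14.7 and 14.6 TPM.

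Ntf5, which codes for neurotrophin-4, another ligand of TrkB, was near the lower limit, at 0.13 and 0.02 TPM on 5 counts and 1 count. It was below both Bdnf and Ntf3 in each library.

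Genes that handle the precursor ranged widely. Of the 12 cleavage genes the highest were Serpini1, the inhibitor neuroserpin (53.7 and 66.9 TPM), Plat, tissue plasminogen activator (31.3 and 19.2 TPM), and Furin, a convertase of the secretory pathway (20.4 and 24.6 TPM). Plg, whose product plasmin cleaves released proBDNF, was at 0.04 and 0.02 TPM, and Mmp9 was also under 1 TPM, at 0.74 and 0.65 TPM. No read was assigned to Mmp3 or Mmp7. A count of 0 still allows up to 3 of the 29144892 counts of replicate 1 and 3 of the 31755578 of replicate 2, as far as counting error goes. For sorting and secretion, Cpe, carboxypeptidase E, a sorting receptor of proBDNF, was the highest of all list genes at 1368 and 1355 TPM, and Hap1 (51.6 and 57.6 TPM) and Syt4 (37.8 and 41.9 TPM) followed.

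Downstream of the Trk receptors no listed gene was under 1 TPM. Among 12 adaptors the median was 17.3 TPM, led by Shc3, a neuronal Shc (85.2 and 95.1 TPM), Grb2 (74.5 and 79.0 TPM) and Plcg1, phospholipase C gamma (45.5 and 52.7 TPM). Among 21 genes of the kinase arms the median was 44.1 TPM, and Hras, a small GTPase of the Ras arm, was at 85.7 and 96.8 TPM. Among 9 genes induced by BDNF signalling the median was 35.0 TPM, led by Vgf, a neuropeptide precursor (133 and 138 TPM), Homer1 (60.9 and 72.5 TPM) and Dusp6, a phosphatase of the MAP kinase arm (35.2 and 42.3 TPM).

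**Figure D4:**
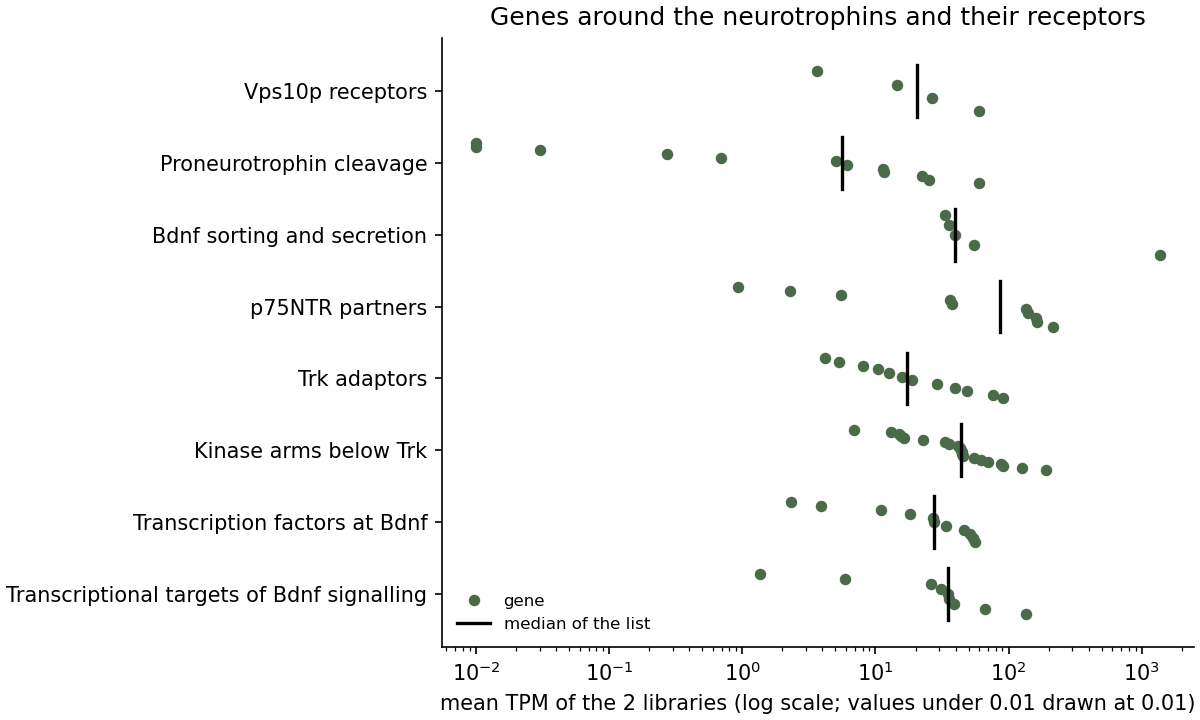
Mean TPM of each gene of 8 lists around the members (dots, log axis), with the median of each list as a bar; values under 0.01 are drawn at 0.01. The partners of p75NTR have a median of 86.2 TPM and the kinase arms 44.1 TPM.

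Replicate 2 was set against replicate 1 gene by gene in a two-sided exact binomial test that allows for library size, adjusted by Benjamini-Hochberg over the 18332 genes whose mean count reached 10. The test asks whether 2 libraries differ beyond counting noise, and it has no replicate behind it. All 6 members entered the test. Called at an adjusted p under 0.05 were 3 of 6 members, against 22.7% of all genes tested, and all 3 were higher in replicate 2, against 12.5% of genes called in that direction and 10.2% called higher in replicate 1. The called share rises with the count: it was 9.59% of genes with mean counts from 10 to 100 and 70.4% of those from 10000. edgeR's exact test with an assumed coefficient of biological variation of 0.1 called none of the 6, against 0.944% of all genes tested. Its unadjusted p was under 0.05 for 1 member and for 1183 of the 18332 genes tested.

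Ntf3 had the larger difference of the ligands, at 92 counts in replicate 1 and 168 in replicate 2. The log2 ratio was 0.73, with a 95% Clopper-Pearson counting interval from 0.35 to 1.11 (exact binomial adjusted p = 0.00083), and 92.7% of all tested genes had a smaller one in size. The edgeR adjusted p was 0.364. For Bdnf, at 1133 and 1447 counts, the log2 ratio was 0.21 (interval 0.10 to 0.33, exact binomial adjusted p = 0.00159, edgeR adjusted p = 1.0). Ntf3 is known from granule cells of the dentate gyrus. Prox1, the granule cell marker, had a log2 ratio of 0.44 between the same libraries. Prox1 passed the exact binomial test (adjusted p = 3.17e-71) and did not pass edgeR's exact test (adjusted p = 0.659). Whether the difference of Ntf3 is linked to that of Prox1 was not tested.

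The receptors differed little. For Ntrk3 the log2 ratio was 0.05 (interval 0.02 to 0.09, exact binomial adjusted p = 0.0133), resolved by 12187 and 13938 counts, and only 22.1% of tested genes had a smaller one in size. For Ntrk2 it was -0.02 (interval -0.05 to 0.01), for Sort1 0.0026 (interval -0.03 to 0.03) and for Ngfr 0.11 (interval -0.41 to 0.64), and none of these passed the test. A difference of Ngfr within that interval was not detectable at this depth.

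**Figure D5:**
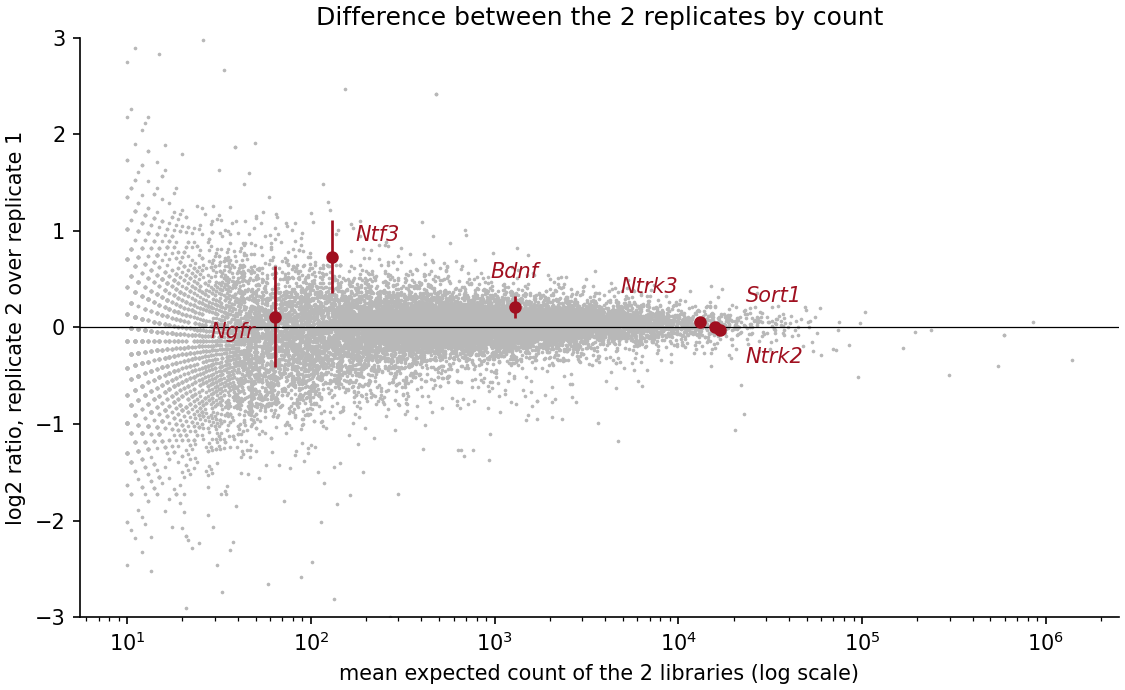
Log2 ratio of replicate 2 over replicate 1 against the mean expected count (log axis) for all genes tested (grey), with the 6 members in red and bars for their 95% counting intervals; the 42 genes beyond 3 on either side are not drawn. Ntf3 is at 0.73 and Bdnf at 0.21, and Ntrk2, Ntrk3 and Sort1 lie between -0.02 and 0.05.

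Of the 87 genes in the 9 lists, 82 were tested, 29 were higher in replicate 2, 9 were higher in replicate 1 and 44 were not called. The median log2 ratio was 0.08, beside 0.0022 over all genes tested. Called were 46.3% of the tested list genes, against 22.7% of all genes tested (12.5% higher in replicate 2 and 10.2% higher in replicate 1). Of all genes with mean counts from 1000 to 10000, 39.5% were called, so the list counts are not set apart from the effect of count. Partners of p75NTR accounted for 7 of the genes that were higher in replicate 2, with none lower, and the kinase arms also for 7, with 1 lower. The sorting and secretion list had 3 higher and 2 lower of 5, the BDNF-induced genes 4 higher and 3 lower of 9, the factors at Bdnf promoters 3 higher and 1 lower of 11, the cleavage genes 2 higher and 1 lower of 9 tested, the Trk adaptors 1 higher and 1 lower of 12 and the Vps10p receptors 2 higher and none lower of 4. Plat had a log2 ratio of -0.77 and passed both the binomial test (adjusted p = 6.27e-37) and edgeR's exact test (adjusted p = 0.0381).

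Genes of other cell types moved between the same libraries. Myelinating oligodendrocyte markers had a median log2 ratio of -1.21 and all 6 were called lower in replicate 2. The 2 tested genes of the thalamus list were unequal, with Tcf7l2 at -1.33 and Prkcd at -0.43 (median -0.88), and both were called. Gbx2, of the same list, was at 0 in replicate 2 and at 0.05 TPM in replicate 1. Whether these genes reflect thalamic tissue here was not tested. The 2 tested choroid plexus genes had a median of -1.51 and both were called. Excitatory neuron markers had 3 of 5 higher in replicate 2 and none lower, with a summed level of 2730 and 2961 TPM, and interneuron markers 2 higher and 1 lower of 5, with 296 and 381 TPM. Oligodendrocyte precursors had 1 of 3 higher and microglia 3 of 4. Endothelial and mural cells had 3 higher and 1 lower of 5, and Cajal-Retzius cells 1 of the 2 tested higher. These calls are from the binomial test, which called 12.5% of all genes tested higher in replicate 2 and 10.2% higher in replicate 1. In edgeR's exact test all 6 myelinating oligodendrocyte markers, Tcf7l2, Ttr and Otx2 passed, and Prkcd did not (adjusted p = 0.746). No called marker of neurons, astrocytes, oligodendrocyte precursors, microglia, endothelial and mural cells or Cajal-Retzius cells passed it (lowest adjusted p = 0.467, for Sst). Whether the marker differences between the libraries bear on the values of Bdnf, Ntf3 and Ntrk3 was not tested.

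Of the annotated genes, 11 overlap a member in the genome, 7 of them on the opposite strand, and none overlaps Ntf3 or Ngfr. The largest by count were Gm9885, antisense to Ntrk3, with 128 and 130 counts, and Gm43099, on the same strand as Sort1, with 132 and 89. None held more than 1.05% of the count of the member it overlaps.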

How the data were processed

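Total RNA of 2 hippocampus samples was sequenced with ERCC spike-ins for stranded, ribosomal RNA-reduced libraries, per the labels. The authors deposited expected counts, TPM and the percent of each gene's TPM per transcript in tables with the RSEM column layout, per the file headers, and a second set of transcript tables with the kallisto column layout holds estimated counts and TPM. Build mm10 and GENCODE M21 are named in the deposited notes. For the aligner, the settings and the program versions, nothing is given in the sources used here. TPM were scaled by the authors over all entries, spike-ins included, and kallisto TPM were summed per gene here.

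Expected counts were rounded. Library sizes were scaled by TMM (edgeR 4.0.16, R 4.3.3), DESeq2 1.42.0 size factors were an alternative, and tests used scipy 1.17.1 with a prior count of 0.5 in ratios. The binomial test was tested on simulated data for 18332 genes, where it recovered 74.0% of genes lowered to 0.5-fold and 80.0% of genes raised 2-fold. The simulated counts held counting noise and no biological variation, so these rates do not cover differences between animals or dissections. With 1 group, p-values compare 2 libraries and no conditions. Replicates were unpaired, and the 26248 numbered entries that name no gene (at most 2.67e-05% of counts) were left out.

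The members and all lists were chosen with earlier results of these data known. Named were all 6 members and, of each list, the 3 genes of highest TPM and every gene under 1 TPM, with cell type markers where replicate differences are given. Some list genes that this rule names are not reported here.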

Additional observations from a re-analysis of the deposited data

How the results depend on the processing

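Of the 10 gene pairs, only Ntrk2 to Ntrk3 changed its call, to a log2 ratio of 0.38 with counts not divided by length; the kallisto-layout tables, posterior mean TPM and a pseudocount of 1 changed none. With counts not divided by length the truncated to full-length ratio of Ntrk3 was -2.09 and passed the rule, and that of Ntrk2 turned to -0.15, from 0.35, without passing it. First exon VI held 46.7% of Bdnf TPM in the kallisto-layout tables. Genes called between the replicates numbered 6516 with spike-in totals, which moved the median log2 ratio to 0.11 with 84.7% of calls higher in replicate 2 (54.9% in the main setting, 62.5% with DESeq2 size factors, 30.6% with edgeR's exact test), and 173 with edgeR's exact test. Members called were 5 with spike-in totals, 4 with the kallisto-layout counts and 0 with edgeR's exact test, against 3 in the main setting. The log2 ratio of Ntrk2 between the replicates turned to 0.086 with spike-in totals and 0.024 with the kallisto-layout counts; the cause was not tested. TPM of the 6 genes was higher in the kallisto-layout tables (Ntrk2 at 201, Ngfr at 1.35 TPM) and when rescaled to protein-coding genes (Ntrk2 at 299, Ngfr at 2.04 TPM). Without 1 replicate the pair ratios ranged from 0.19 to 7.29. No paired analysis was possible because there is 1 group.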
